A study of Canis lupus familiaris with 11 samples.

Results

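The row of the exon table that holds *BAG6* was examined bin by bin in canine osteosarcoma. An exon bin is a piece of an exon that is left when all overlapping transcripts are cut into pieces that do not overlap. The row joins 2 Ensembl genes and was selected by its joined identifier, ENSCAFG00000000601+ENSCAFG00000000575, which gave 35 of the 217945 bins of the table. *BAG6* is ENSCAFG00000000575 (CanFam3.1 chromosome 12, 1126584 to 1146964, minus strand), whereas ENSCAFG00000000601 could not be paired with a symbol. Of the 35 bins, 32 had a mean value of at least 10 over the libraries and entered the comparisons. Bins 8, 25 and 26 stayed below this level, with means of 2.67, 7.49 and 3.41 and at most 21 reads in any library. The row was picked because the study had tested an exon of *BAG6* as a stable reference sequence, so that its low variation in some bins is a property it was chosen for.

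BAG6 is a large chaperone of the cytosol and nucleus that binds exposed hydrophobic segments of newly made proteins. Together with GET4 and UBL4A it passes proteins with a membrane anchor at their tail on to the route into the endoplasmic reticulum, and with the ubiquitin ligase RNF126 it sends misplaced membrane proteins to the proteasome. Its gene lies in the gene-dense class III region of the major histocompatibility complex. In the RefSeq annotation of another dog assembly (UU_Cfam_GSD_1.0, used only for names and order), its nearest protein-coding neighbours are *PRRC2A* and *AIF1* on 1 side and *APOM*, *C12H6orf47* and *GPANK1* on the other.

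Poly(A) RNA had been sequenced from tumours of 11 dogs with osteosarcoma, of which 8 were tissues and 3 were cell lines (primary cultures of tumour cells). The dogs of the tissues belonged to 8 breeds, were 7 females and 1 male and had been diagnosed at ages from 4 years and 6 months to 12 years and 6 months. Among the tissues, 5 were osteoblastic osteosarcomas, 1 an osteochondrosarcoma, 1 (1033) a lung metastasis of an osteosarcoma and 1 of unknown histology. The cell lines OSCA-30 and OSCA-40 came from osteoblastic tumours and OSCA-32 from a fibroblastic one, in 2 females and 1 male aged from 5 years and 8 months to 8 years and 7 months. Per the study's methods, the samples came from newly diagnosed dogs before any cytotoxic chemotherapy. As treatment the study lists carboplatin for 0460 and 1033, and standard-of-care chemotherapy for DOS-71, DOS-126, OSCA-30 and OSCA-32. It does not list when this treatment was given relative to sampling. Tissues hold stroma, vessels and blood cells besides tumour cells, and a culture lacks most of these. None of the 18 marker symbols of osteoblasts, leukocytes, endothelium, fibroblasts and muscle (0 of 18) could be paired with an identifier of the table, so that the labelled tissue was not checked against its markers. Each library stems from a separate tumour or culture. For the tissues 1033, 1091, 0320 and 0460, the RNeasy Fibrous Tissue Mini Kit had served to extract RNA, for DOS-119, DOS-126, DOS-127 and DOS-71 it was TRIzol, and for the cell lines the RNeasy Mini Kit. Kind of sample and kit therefore cannot be told apart. DOS-71 (3123757 reads) and OSCA-32 (3471461 reads) were far less deeply sequenced than the other 9 libraries, which held 8506457 to 24902774 reads, and results that rest on this pair are given with and without it.

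Summed over its bins, the row was lower in every cell line than in every tissue on the deposited scale. The deposited values (reads divided by 1 factor per library) were 2223 in OSCA-30, 2593 in OSCA-32 and 1764 in OSCA-40. Those of the tissues ranged from 2833 in DOS-71 over a median of 3802 to 6411 in DOS-126. The log2 difference between cell lines and tissues was -0.88 (SE 0.284), which just missed the threshold (limma with Benjamini-Hochberg adjustment over 13858 genes, adjusted p = 0.0509). For a single value, the exact permutation test over the choices of 3 among 11 libraries gave p = 0.00606 (two-sided), the smallest this design allows. Both rest on the deposited scaling. In CPM (reads scaled to equal library totals), OSCA-32 had 312 and lay above the tissues 1091 (292) and DOS-71 (303), so that the groups overlapped, and with equal totals the log2 difference was -0.70 (limma adjusted p = 0.126). Across all genes tested, 14.4% were called lower and 2.6% higher in cell lines, with a median log2 difference of -0.37. This split was 1992 to 360 genes on the deposited scale, 1473 to 638 with median-of-ratios scaling (median -0.10) and 1032 to 758 with edgeR (median -0.03). In bulk RNA, fewer cells of a type and less RNA per cell cannot be told apart. The sum hides a marked inequality among the bins, which the following values show.

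**Figure D1:**
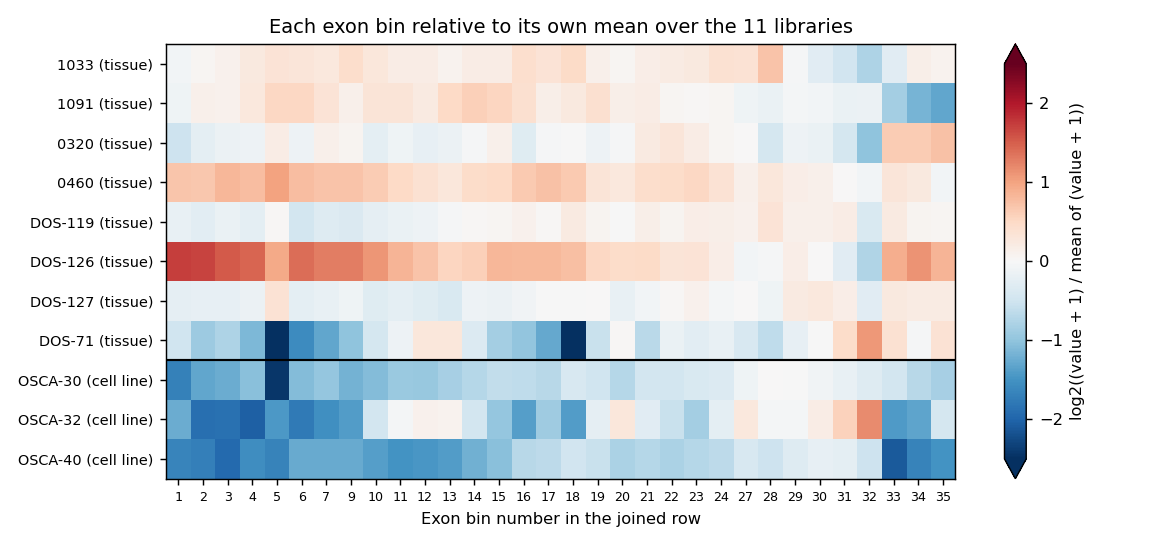
Value of each of the 32 bins (columns, bin number) in each of the 11 libraries (rows), as log2 of (value + 1) relative to the mean of the bin. Blue bins at the left of the 3 cell lines fade toward bins 27 to 30 and return at bins 33 to 35. DOS-126 shows the opposite colours at the left, and DOS-71 shares the red of bins 31 and 32 with OSCA-32.

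Bins were taken to be numbered along the chromosome, as DEXSeq does on both strands. The file does not state this. All mentions of 3′ and 5′ rest on it, and bin 1 then lies at the 3′ side of a gene on the minus strand such as *BAG6*. Of the 32 bins, 7 were lower and 0 were higher in cell lines than in tissues (limma on log2(value + 1) with Benjamini-Hochberg adjustment over 101533 bins), where 9.25% of all bins were called lower and 4.55% higher. The lower bins were 1, 2, 3, 4 and 9 at the start of the row and 33 and 34 at its end. All 3 cell lines lay below all 8 tissues in 9 of the 32 bins (bins 1, 2, 3, 9, 10, 14, 22, 23 and 24), against 8.37% of all bins. In 0 of the 32 bins did all cell lines lie above all tissues, against 5.92% of all bins. Without DOS-71 and OSCA-32 the number of lower bins was 5 (bins 3, 5, 9, 11 and 12, against 5.9% of all bins), a comparison chosen after seeing the data. The count depended on single libraries, being 17 without DOS-71 (10.8% of all bins), 1 without OSCA-32 (4.86%) and 0 without OSCA-40 (6.85%). Without OSCA-40, 12 bins of the row had an unadjusted p under 0.05 (limma), as had 26632 of all 100626 bins. DESeq2 called 16 bins lower, against 12.1% of all bins.

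The strongest difference was in bin 3. Its values were 55.9, 35.9 and 33.9 in OSCA-30, OSCA-32 and OSCA-40, and 78.0 to 387 in the tissues with a median of 132. The groups did not overlap, and the log2 difference was -1.84 (SE 0.428, limma adjusted p = 0.0143). Bin 2 had values of 47.6, 31.2 and 35.4 in the same order of cell lines and of 63.0 to 382 in tissues, with a median of 113. Its log2 difference was -1.75 (SE 0.449, limma adjusted p = 0.0223). Bin 1 had 19.1, 26.4 and 19.4 in cell lines and 44.0 to 212 in tissues, with a median of 57.3 and a log2 difference of -1.63 (SE 0.442, limma adjusted p = 0.0282). In these 3 bins DOS-126 was the highest tissue, and no cell line reached the lowest tissue.

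Bin 4 fell by 1.68 on the log2 scale (SE 0.454, limma adjusted p = 0.0276). Here the groups touched, as OSCA-30 with 82.0 was above DOS-71 with 78.0, while OSCA-32 and OSCA-40 had 40.7 and 57.3 and the tissues a median of 179 and a maximum of 467. Bin 9 had 50.2, 43.1 and 47.7 in the cell lines and 57.0 to 280 in tissues, with a median of 123. The groups were apart, and the log2 difference was -1.42 (SE 0.409, limma adjusted p = 0.0360). Bin 7, with 61.0, 40.7 and 49.5 in cell lines and 48.0 to 295 in tissues, had a log2 difference of -1.37 that missed the threshold (SE 0.445, limma adjusted p = 0.0554). Bins 5 and 6 had log2 differences of -1.77 (SE 0.874) and -1.44 (SE 0.502), and bin 5 was covered by at most 50 reads per library.

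Over all libraries, the difference was smaller from stretch to stretch toward bin 32. In bins 10 to 18 the log2 differences lay between -1.11 and -0.71, in bins 19 to 24 between -0.81 and -0.50, and in bins 27 to 30 between -0.18 and -0.04. Bins 31 and 32 had differences of 0.12 and 0.40. Over the 29 bins from 1 to 32, Spearman's ρ of the bin number with the log2 difference was 0.959. This is a description across bins that share the same libraries. The ρ was 0.934 against the tissues of the RNeasy Fibrous Tissue Mini Kit alone, 0.957 against those of TRIzol alone and 0.980 without DOS-71 and OSCA-32. Median-of-ratios scaling moved the median of all bins from -0.11 to 0.17 and those of the row by nearly as much (bins 1 to 9 then lay between -1.58 and -1.10 and bins 27 to 30 between 0.08 and 0.23), so that the bins near 0 changed sign and the order of the bins was kept (ρ again 0.959). The stretches were less distinct in the lane label L007, which holds 1 cell line, where bins 10 to 18 had differences of -1.60 to -0.05 (median -1.24) and bins 1 to 9 of -2.04 to -1.02 (median -1.37).

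**Figure D2:**
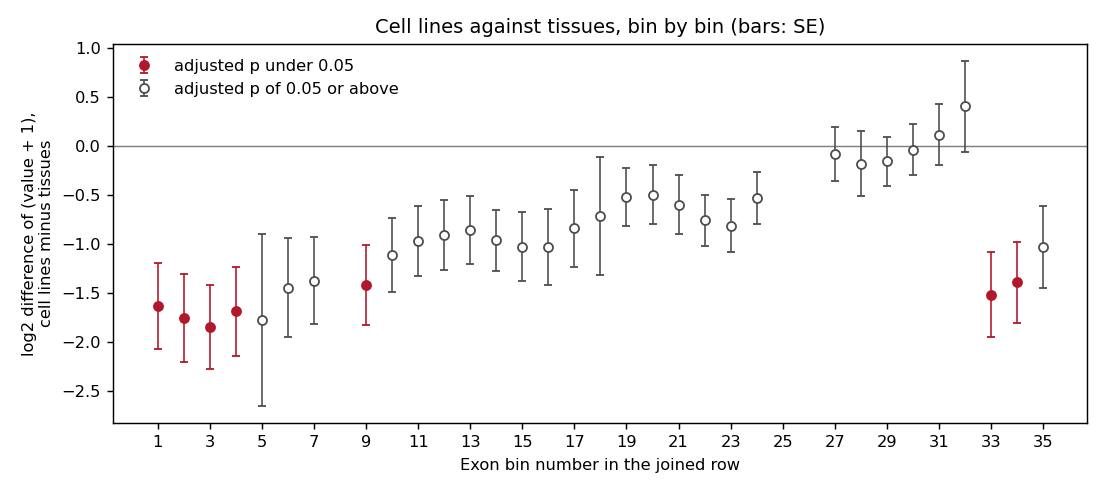
Log2 difference of (value + 1) between the 3 cell lines and the 8 tissues (vertical axis, points with SE bars) for each bin by its number along the row (horizontal axis). Filled red points are the 7 bins with an adjusted p under 0.05 (limma). The difference rises from -1.84 in bin 3 to 0.40 in bin 32 and drops to -1.52 in bin 33.

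The bins with the lowest variation over the libraries, a measure that contains the difference between the groups, were bins 29, 30 and 27. Bin 29 had 114, 110 and 90.9 in OSCA-30, OSCA-32 and OSCA-40, and the tissues had 98.9 to 133 with a median of 118. The groups overlapped in full except for OSCA-40, and the log2 difference was -0.16 (SE 0.253, limma adjusted p = 0.704). Bin 30 had 91.5, 110 and 83.8 in cell lines and 79.3 to 117 in tissues with a median of 96.7. All cell lines lay within the range of the tissues, and the log2 difference was -0.04 (SE 0.258, limma adjusted p = 0.937). Bin 27 had 59.1, 76.7 and 48.1 in cell lines and 48.0 to 82.2 in tissues with a median of 63.9, again without separation, and a log2 difference of -0.08 (SE 0.276, limma adjusted p = 0.865). A p above the threshold does not show that the levels were equal.

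The coefficient of variation (*CV*, standard deviation over mean of the deposited values), the study's measure of stability, fell in a similar order from bin 1 to bin 30. Over the 11 libraries the 3 lowest values were 0.116 in bin 29 (jackknife SE 0.0221), 0.122 in bin 30 (SE 0.0217) and 0.166 in bin 27 (SE 0.0356). Only 0.0128%, 0.0187% and 0.152% of all bins with a mean of at least 10 had a lower *CV* than these 3. The 3 highest were 0.860 in bin 1 (SE 0.346), 0.838 in bin 2 (SE 0.312) and 0.766 in bin 3 (SE 0.224). The median of the 32 bins was 0.439 (SE 0.0781), while that of all 101533 bins was 0.549. Of all bins, 81.8%, 80.5% and 75.5% had a lower *CV* than bins 1, 2 and 3. By stretches, the *CV* was 0.630 to 0.860 in bins 1 to 9, 0.335 to 0.514 in bins 10 to 18, 0.207 to 0.279 in bins 19 to 24 and 0.116 to 0.293 in bins 27 to 30. It was higher again in bins 31 and 32 (0.254 and 0.614) and in bins 33 to 35 (0.475 to 0.562).

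Counting of reads made up very different shares of these values. It accounted for 65.7% of the squared *CV* in bin 29, for 73.7% in bin 30 and for 58.9% in bin 27, but for 1.91%, 1.02% and 1.10% in bins 1, 2 and 3. In bins 29 and 30, which held 32 to 347 reads per library, counting thus gave the greater part of the spread. In the 8 tissues alone the *CV* was 0.108 (SE 0.0191) in bin 29 and 0.123 (SE 0.0318) in bin 30, against 0.716 (SE 0.356) in bin 1 and 0.681 (SE 0.323) in bin 2. Without DOS-126, a comparison chosen after seeing the data, the *CV* in the other 7 tissues was 0.337 in bin 1 and 0.343 in bin 2, and 0.110 in bin 29. Which bin is the exon used by the study is not settled by its number. Bins 4, 7, 29 and 32, which different readings of that number give, had a *CV* of 0.722, 0.640, 0.116 and 0.614. In the tissues alone it was 0.565, 0.509, 0.108 and 0.579. The study chose its sequences for a low *CV* in a larger set of samples. Of these bins, only bin 29 was low in *CV* here.

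**Figure D3:**
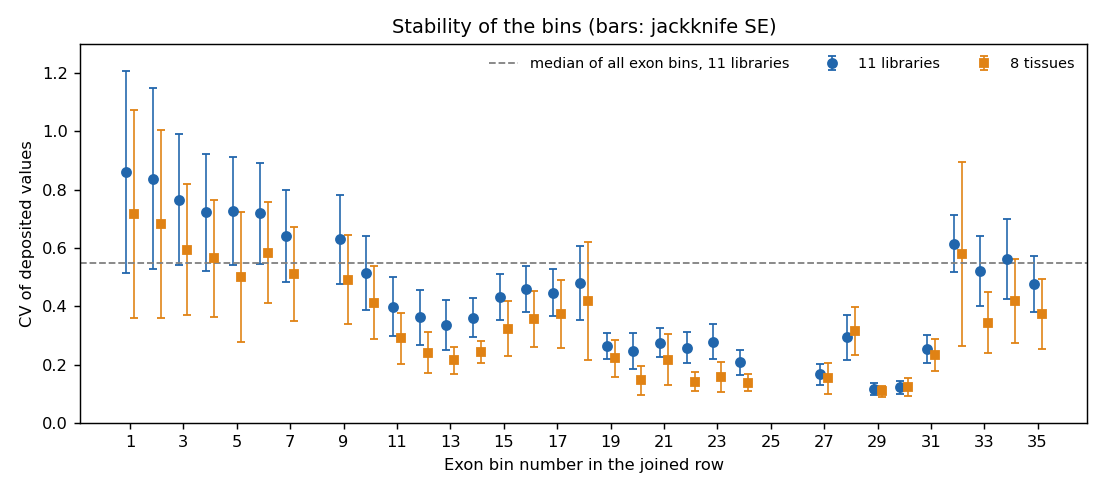
*CV* of the deposited values (vertical axis) of each bin by its number (horizontal axis), over the 11 libraries (blue circles) and over the 8 tissues (orange squares), with jackknife SE bars. The dashed line is the median of all bins (0.549). Bins 29 and 30 lie lowest with 0.116 and 0.122, and bins 1 and 2 highest with 0.860 and 0.838.

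Bins were then grouped by how their log2 values correlated over the 11 libraries (average linkage on 1 minus Pearson's *r*, divided at a height of 0.5). Since the groups were made from the same values that are compared below, their levels are given without a test, and as points of one correlation share the depth and scaling of their library, the values of *r* describe these libraries only. There were 4 groups. The largest comprised 26 bins, namely 1 to 24 (without bin 8) and 33 to 35, and the others were the pairs 27 and 28, 29 and 30, and 31 and 32. The pairs were less settled than the start of the row, as they stood as groups of their own in 17, 11 and 16 of 25 alternative ways of grouping, whereas bins 1 to 9 stayed together in 23. Bins 1 to 9 correlated closely with each other, with a median *r* of 0.953 over 28 pairs. They correlated with bins 10 to 18 at a median *r* of 0.849 and with bins 27 to 30 at 0.352. With bins 31 and 32 the median *r* was -0.501. This value rested on DOS-71 and OSCA-32, since without them it was -0.06 over the other 9 libraries (-0.17 to 0.11). Among bins 1 to 9 the median *r* was then 0.975.

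**Figure D4:**
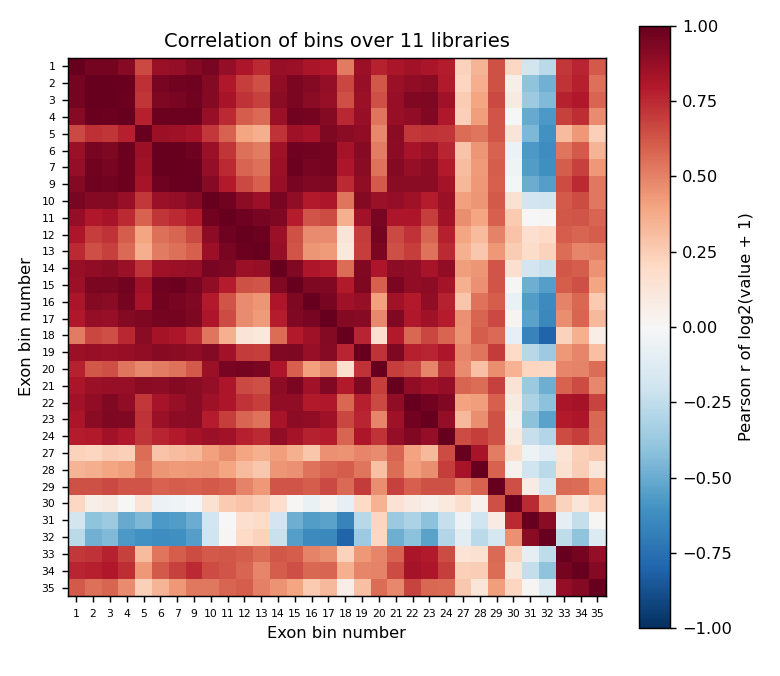
Pearson's *r* of log2(value + 1) over the 11 libraries between all pairs of the 32 bins (both axes, bin number). Bins 1 to 24 form 1 red field, bins 31 and 32 are blue against its greater part (with the values of DOS-71 and OSCA-32 included), and bins 33 to 35 form a small field of their own that is paler against bins 1 to 9 (median *r* 0.615).

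The sharpest break between neighbours lay between bins 32 and 33. Their *r* was -0.251, whereas all other neighbouring bins had an *r* from 0.591 to 0.994. Without DOS-71 and OSCA-32 it was -0.254. Bins 33 to 35 correlated with each other at a median *r* of 0.922, with bins 31 and 32 at -0.188 and with bins 1 to 9 at 0.615. They formed a group of their own in 7 of the 25 alternatives, among them the 8 tissues taken alone, Spearman's ρ and complete linkage. The log2 difference between cell lines and tissues jumped at the same place, from 0.40 in bin 32 to -1.52 in bin 33. The table gives neither the coordinates of the bins nor the gene that each bin belongs to. For this reason the bins could not be assigned to ENSCAFG00000000575 or ENSCAFG00000000601. The strand of ENSCAFG00000000601 was not determined. Apart from this, the library kit does not mark the strand, so reads of any gene that overlaps *BAG6* on the other strand could not be told apart.

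Bin 33 had 19.7, 9.59 and 5.66 in OSCA-30, OSCA-32 and OSCA-40, and 14.7 (1091) to 52.1 (DOS-126) in tissues with a median of 33.3. OSCA-30 lay above the tissue 1091, and the bin fell by 1.52 on the log2 scale (SE 0.431, limma adjusted p = 0.0340). It was covered by only 4 to 86 reads per library. Bin 34 had 48.3, 31.2 and 24.04 in cell lines and 35.002 (1091) to 174 (DOS-126) in tissues with a median of 89.6. It fell by 1.39 (SE 0.414, limma adjusted p = 0.0406), again with OSCA-30 above 1091. Bin 35 had a log2 difference of -1.03 that did not pass (SE 0.419, limma adjusted p = 0.112). Bins 33 and 34 both missed the threshold in 12 of 23 and 16 of 24 alternatives, including either scaling, with differences from -1.95 to -1.004 and from -1.65 to -1.13.

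The tissue 1091 set bins 33 to 35 apart from the start of the row. Summed over bins 33 to 35, its value was 84.7, the lowest of the tissues and below OSCA-30 (117) and OSCA-32 (105), while OSCA-40 had 60.5. The other 7 tissues had 203 to 385. Over bins 1 to 9, however, 1091 had 982, above the median of the tissues (877). DOS-71 showed the reverse, with 228 over bins 33 to 35, above the median of 219, and 402 over bins 1 to 9, the lowest of the tissues. Both stretches were lower in cell lines, but they did not rank the tissues alike.

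Group by group, the largest group carried the difference of the whole row. Its summed value was 1771, 1960 and 1378 in OSCA-30, OSCA-32 and OSCA-40, and 2282 (DOS-71) to 5944 (DOS-126) in tissues with a median of 3352. The groups of libraries did not overlap, the mean of the cell lines was 0.473 times that of the tissues, and the difference of the mean log2 values was -1.04. Bins 1 to 9 alone gave 365, 252 and 289 in cell lines against 402 to 2319 in tissues and a ratio of the means of 0.291. Bins 33 to 35 alone gave a ratio of 0.406. The pairs 27 and 28 and 29 and 30 had ratios of 0.910 and 0.931, with all or nearly all values in a common range. The latter pair had 205, 220 and 175 in the cell lines and 190 to 250 in tissues, with OSCA-40 alone below the tissues.

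The pattern of bins 31 and 32 rested on the 2 shallow libraries. In bin 32, OSCA-32 had 122 and DOS-71 had 114, while the other 9 libraries had 26.2 to 50.9. In bin 31 they had 163 and 150 against 77.9 to 124. These values rest on 51 and 38 reads in bin 32 and on 68 and 50 reads in bin 31. Both shallow libraries exceeded the other 9 in 2 of the 32 bins, against 3.63% of all bins, and both lay below them in 5 (bins 6, 7, 16, 17 and 18), against 5.49% of all bins. Without the pair, the *CV* of bin 32 was 0.214 in place of 0.614, and the difference of the summed log2 values between cell lines and tissues was -0.04 in place of 0.21. Bins 29 to 32 then formed 1 group. The part of sequencing depth in these values was not tested.

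Whether single bins departed from the rest of their row was tested with the fit that sets a bin against its other bins (limma diffSplice). No bin of the row passed (0 of 32, with 8 at an unadjusted p under 0.05), and 0.275% of all bins did. Of all 98962 bins in this test, 6785 had an unadjusted p under 0.05 (limma). The lowest adjusted p was 0.141 in bin 32, whose difference exceeded that of the other bins by 1.35 on the log2 scale (SE 0.403, limma). Bins 29, 30 and 31 exceeded the others by 0.77, 0.89 and 1.05, and bin 3 lay 0.97 below them, without passing. With DOS-71 left out (0.829% of all bins called), or against the tissues of the RNeasy Fibrous Tissue Mini Kit alone (1.84%), bins 31 and 32 were called higher and bin 5 lower than the rest of the row. Without DOS-71 and OSCA-32 (0.158%), bin 5 alone was called.

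Between the tissues, the isolation kit was compared as the batch that the labels give. The 4 tissues of TRIzol and the 4 of the RNeasy Fibrous Tissue Mini Kit also differ in the lane label of their libraries (L007 and L006), so kit and lane label cannot be told apart here. None of the 32 bins differed (0 of 32, 0 at an unadjusted p under 0.05, limma), as was the case for 0% of all 98784 bins tested, of which 6014 had an unadjusted p under 0.05. edgeR called 0 and DESeq2 called 450 of all bins, and 0 of the row. The log2 differences of the row lay between -1.17 and 0.50, with a lowest adjusted p of 0.817 (limma). Taken within each kit, the difference between cell lines and tissues in bins 1 to 9 was -2.35 to -1.53 against the RNeasy Fibrous tissues and -1.78 to -1.12 against the TRIzol tissues. Within the lane labels it was -2.44 to -1.46 in L006 and -2.04 to -1.02 in L007, the latter with 1 cell line. DOS-126 and DOS-71 carry the same index sequence and the same label L007, so this label may cover more than 1 sequencing run. Comparisons by lane label therefore need not hold the run constant. In bins 31 and 32 the sign differed between lane labels, with 0.46 to 0.92 in L006 and -0.43 to -0.37 in L007.

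A fall of the cell lines toward the first bins was not particular to this row. For each library, the summed value of the first 10 of the 32 bins was divided by that of the last 10, and the log2 of this ratio was taken. It was -0.27 in OSCA-30, -0.51 in OSCA-32 and -0.30 in OSCA-40, and -0.27 (DOS-71) to 1.62 (DOS-126) in the tissues, a difference of the means of -1.01. The last 10 bins include bins 33 to 35, which had log2 differences of -1.52 to -1.03. Over bins 1 to 32 alone, with 9 bins at each end, the difference of the means was -1.19. The same ratio, taken from the 3′ to the 5′ stretch of bins with the number of bins divided by 3 as the length of a stretch, was computed in the 44 other genes whose strand is known (17 on the plus and 27 on the minus strand). Their strand came from the study's own list of stable sequences, chosen in part on these libraries, so they are not a random sample of genes. All 44 had a lower ratio in cell lines than in tissues, with a median difference of -0.83 and a range from -2.26 to -0.07. Of these, 12 were as low as the -1.01 of the row of *BAG6*. Among the 6513 rows of the table with at least 6 bins, 33.5% had an end-to-end difference at least as large as -1.01 in either direction. Neither share was counted against the -1.19 of bins 1 to 32.

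The 5 highest libraries were the same on both measures. In the 44 other genes, the median log2 ratio of the 3′ to the 5′ stretch was 1.86 in DOS-126, 1.54 in 0460, 1.44 in 1091, 1.18 in 1033 and 1.15 in 0320. In the row of *BAG6* these came in the same order, with 1.62, 1.11, 1.10, 0.74 and 0.40. The 3 cell lines were lowest on both measures (in the row of *BAG6*, OSCA-30 was level with DOS-71), with 0.29, 0.34 and 0.29 in the other genes for OSCA-30, OSCA-32 and OSCA-40. The order of the lower libraries differed, as OSCA-32 was the highest cell line in the other genes and the lowest library in the row. The part of this library-wide slope of reads along transcripts in the differences of single bins was not tested.

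**Figure D5:**
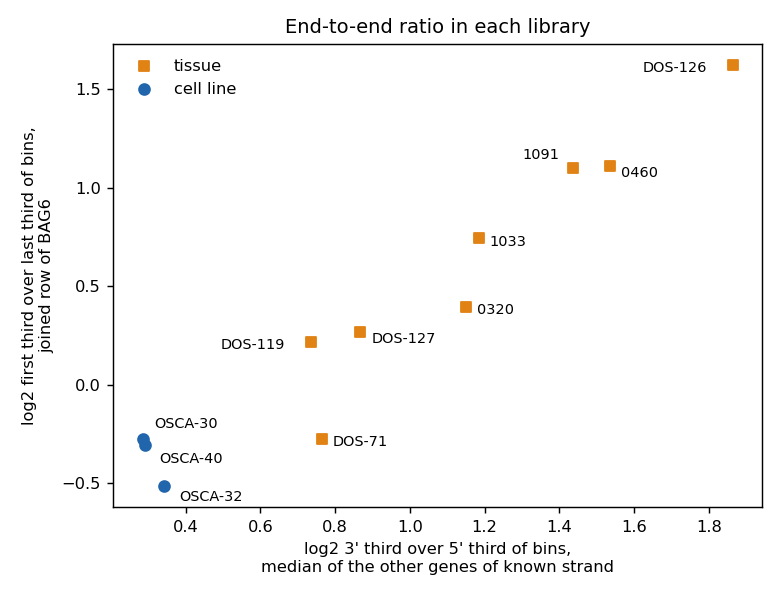
Log2 ratio of the first 10 to the last 10 bins in the row of *BAG6* (vertical axis) against the median log2 ratio of the 3′ to the 5′ stretch of bins in the 44 other genes of known strand (horizontal axis), 1 point per library. The 3 cell lines (blue circles) lie at the lower left, and the tissue DOS-126 (orange squares) at the upper right with 1.86 and 1.62.

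Of 11 symbols in a list of protein targeting, 3 could be paired with an identifier. The study itself had picked these 3 as stable genes, in part on these libraries. None passed the threshold between cell lines and tissues (0 of 3, 0 at an unadjusted p under 0.05, limma). Of all 13858 genes, 2352 passed and 4406 had an unadjusted p under 0.05 (limma), so 0 of 3 says little of the list. GET4, the partner of BAG6 in handing over tail-anchored proteins, had summed values of 540, 645 and 493 in OSCA-30, OSCA-32 and OSCA-40 and of 413 to 775 in tissues with a median of 570. Its log2 difference was -0.04 (SE 0.270, limma adjusted p = 0.928), and its sign changed with the scaling. EMC4, a subunit of the membrane protein complex of the endoplasmic reticulum, had 762, 1019 and 684 in cell lines and 546 to 860 in tissues with a median of 711, a log2 difference of 0.21 (SE 0.242, limma adjusted p = 0.589). SRP68, a protein of the signal recognition particle, had 1340, 1577 and 1187 in cell lines and 1261 to 2109 in tissues with a median of 1784. Its log2 difference was -0.33 (SE 0.230, limma adjusted p = 0.350).

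Genes whose summed values followed each group of bins most closely were looked up over the 11 libraries. For the largest group, the highest Pearson's *r* among 13857 other rows was 0.975 (ENSCAFG00000012503). Among the 48 rows with a symbol, all taken from the study's own tables, it was highest for *SRRT* (0.890), which acts with the cap-binding complex. Next came *THOC5* (0.828) of the THO complex of mRNA export and *HGS* (0.825), an endosomal sorting protein. The ranks of *SRRT*, *THOC5* and *HGS* among all 13857 rows were 118, 433 and 451. For bins 29 and 30 the highest *r* was 0.880 (ENSCAFG00000011110), and that of the symbols was 0.541 (*HNRNPU*, a nuclear RNA-binding protein), followed by 0.380 (*TTF2*) and 0.377 (*TIAL1*). These symbols ranked at 486, 1949 and 1983 among all 13857 rows. For bins 31 and 32 the highest *r* was 0.946 (ENSCAFG00000030376). Among the symbols it was highest for the RNA-binding proteins *HNRNPR* (0.712, rank 206 among all 13857 rows) and *THRAP3* (0.691, rank 248). These values include DOS-71 and OSCA-32, on which the pattern of bins 31 and 32 rested, and were not computed without them. For bins 27 and 28 the highest *r* was 0.924 (ENSCAFG00000024647). The closest symbols were *TFB2M* (0.664, rank 96), a transcription factor of mitochondria, *HNRNPU* (0.589, rank 229) and *CPSF4* (0.560, rank 329), a cleavage and polyadenylation factor.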

How the data were processed

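Poly(A) libraries (TruSeq RNA v2) of 8 tissues and 3 cell lines were analysed. The authors aligned reads with TopHat to CanFam3.1, removed reads with multiple matches with SAMtools, counted the rest on exon bins with the DEXSeq scripts and deposited 1 normalized signal per bin and library, namely the count divided by 1 factor per library; the origin of the factors and the strand setting are not given in the sources used here. Demultiplexing with CASAVA 1.8.2 and use of Cufflinks are listed in the submitters' processing notes. Division by the smallest value of a library gave whole numbers throughout (100%, tolerance 0.01), which were taken as reads. The row held 945 to 10591 reads per library. The designs had assumed that whole reads could not be had, so that edgeR and DESeq2 ran as alternatives only. Columns without a sample numbered 0.

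Bins with a mean of at least 10 were tested on log2(value + 1), which understates changes of low bins, with limma 3.58.1 (R 4.3.3, with trend, and diffSplice), adjusting by Benjamini-Hochberg over all bins of the table with a threshold of 0.05. Genes were sums of the bins of a row. edgeR 4.0.16 and DESeq2 1.42.0 ran on the recovered reads. Groups, *CV*s and figures used Python 3.11.15, numpy 2.4.6, scipy 1.17.1, pandas 2.3.3 and matplotlib 3.10.9. On simulated data, limma recovered 19 of 94 bins changed 2-fold and 88 of 96 changed 4-fold. It called 3 unchanged bins of 99720 tested. The fit of a bin against its row recovered 27 of 97 and 92 of 94, with 62 unchanged bins called of 97193 tested. These counts hold for the simulated data only. Whether simulated bins vary and correlate like those of the real libraries was not tested, so they give no recovery for this comparison.

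The members and lists were chosen with earlier results of these data known. Named are bins past the threshold, the 3 lowest and the 3 highest in *CV*, bins 4, 7, 29 and 32, and the genes most like each group (3 symbols and up to 2 identifiers; 1 of these symbols is not reported here). Of 24580 identifiers, 49 could be paired with a symbol. Alternatives were other scalings, pseudocounts of 0.1 and 10, other filters, other tests, other ways of grouping, 1 kit only, and leaving out libraries. P-values measure the spread between these samples only.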

Additional observations from a re-analysis of the deposited data

Results flagged for a closer look

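Among 39 measures over the 8 tissues (32 bins, the row, its groups and the ratios of ends), 5 had a tissue whose gap to the nearest other tissue, divided by the range, exceeded Dixon's critical value; chance flags about 1 in 20, and neighbouring bins are not independent. DOS-126 was high in bin 1 (212, next tissue 104, gap over range 0.642) and in bin 2 (382, next tissue 190, 0.600). DOS-71 was low in bin 18 (12.0 from 4 reads, next tissue 82.1, 0.546) and high in bin 32 (114 from 38 reads, next tissue 50.9, 0.718) and in the sum of bins 31 and 32 (264, next 166, 0.625). Without DOS-126 the log2 difference of bins 1 to 9 was -1.43 in place of -1.62.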

How the results depend on the processing

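Of 603 alternative values of 33 results, 494 were taken as kept, 23 moved, 59 were weaker, 7 stronger and 20 reversed. Kept values had the same direction and side of the threshold or stayed within the spread. For counts the rule was looser. There, 5 to 9 called bins in place of 7 and 3 to 6 groups in place of 4 were taken as kept. The 7 bins called lower in cell lines became 4 under median-of-ratios scaling and 4 when totals were equal (6812 of all 102380 bins). They became 16 with DESeq2 and 0 to 17 with each library left out. The exact permutation test gave 0 (22 at an unadjusted p under 0.05, as for 29840 of all 101533 bins). It called 0 of all 101533 bins and so says nothing of the row. Against the tissues of TRIzol alone the number was 0 (8 at an unadjusted p under 0.05, as for 22378 of all 102648 bins), where 2906 were called lower. Against those of the RNeasy Fibrous Tissue Mini Kit alone it was 9, where 4738 of all 100306 bins were called lower. Over all bins, the split of higher and lower calls was 4616 to 9389, and 7838 to 6812 with median-of-ratios scaling. The 0 bins that departed from their row became 3 against the RNeasy Fibrous tissues, 1 without DOS-71 and OSCA-32, and 0 to 3 with each library left out. The sum of the row passed the threshold with a pseudocount of 0.1 (-0.88), with DESeq2 (-0.62) and with the exact permutation test (-0.88); with each library left out it lay between -1.01 and -0.73 and passed without DOS-71 alone (-0.95). The number of groups was 1 with single linkage, 2 at a height of 0.7 and 2 where set so. It was 6 with complete linkage, at a height of 0.3 and with all bins that held a read, and 5 in the 8 tissues only. The difference of bins 29 and 30 was 0.17 under median-of-ratios scaling and 0.078 when totals were equal. The median *CV* was 0.347 with median-of-ratios scaling and 0.333 in the 8 tissues only.

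Reversed values, none past the threshold, were those of bin 27 (0.18 and 0.096 with the scalings in this order, 0.013 against TRIzol tissues, -0.25 to 0.077 with a library left out), bin 29 (0.11 and 0.021 with the scalings), bin 30 (0.23 and 0.14 with the scalings, 0.061 against RNeasy Fibrous tissues, -0.15 to 0.049 with a library left out), bin 32 (-0.13 to 0.72 with a library left out, lowest without OSCA-32) and GET4 (0.23 and 0.14 with the scalings, 0.020 against TRIzol tissues, 0.24 with edgeR, 0.20 with DESeq2, -0.15 to 0.042 with a library left out). The cause was not tested. The lane label as a covariate and the values without DOS-71 and OSCA-32 or without DOS-126 were chosen after seeing the data. No paired analysis was possible because the cell lines and the tissues came from different dogs. Depth limits bins 27, 29 and 30, where counting gives 58.9 to 73.7% of the squared *CV*.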
